A study of Mus musculus with 24 samples.

Results

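The aryl hydrocarbon receptor pathway was described here by 10 genes in tumor-associated macrophages, chosen by symbol among the 55487 gene rows of the count table. They are the receptor gene Ahr, its partner Arnt, its repressors Ahrr and Tiparp, its classical target genes Cyp1a1, Cyp1b1, Nqo1, Aldh3a1 and Serpinb2, and Nfe2l2, which encodes NRF2. All 10 were found, each with 1 row. The macrophages came from orthotopic tumors of the mouse colon carcinoma line MC38 in C57BL/6J mice and had been sorted as CD45+, CD11b+ and F4/80+. The MC38 cells either lacked APC, which restrains Wnt signalling (APC-KO), or had it (APC-WT). For the mice, which supplied the macrophages, the labels name the strain and no altered gene. There were 2 APC-KO tumors and 2 APC-WT tumors, each with 6 libraries called replicates of 1 sample, 24 in all, so the spread between libraries is technical or lies within a tumor. Whether each genotype was 1 clone, and the age of the mice, were not given in the sources used here. The series title names tryptophan 2,3-dioxygenase, an enzyme of the kynurenine route, and kynurenine is a known ligand of the receptor.

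The aryl hydrocarbon receptor is a transcription factor that waits in the cytosol with HSP90 and co-chaperones. On binding a ligand, such as a dioxin, an indole or kynurenine, it enters the nucleus, pairs with ARNT and binds DNA at a motif with the core GCGTG. Cyp1a1 and Cyp1b1, which encode oxidising enzymes, are the best known genes it switches on. It also induces its own brakes: AHRR competes for ARNT, and TIPARP is an ADP-ribosyltransferase that marks the receptor for decay. NRF2 is a second xenobiotic sensor, acting at antioxidant response elements, and shares targets such as Nqo1 with the receptor. In macrophages the receptor is known to shape cytokine output and tolerance.

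The 250 bases before the annotated start were available for 8 of the 10 members. The receptor core GCGTG, on either strand, was present in 5 of these 8 and in 28.2% of all 32851 promoter windows of that length. The shortened antioxidant element TGACNNNGC, on either strand, was present in 2 members, Arnt and Nfe2l2, and in 10.2% of all windows. The 2 motifs did not overlap in any member. The 4 repressor and enzyme promoters with the receptor core, and the promoter of Nfe2l2 with the antioxidant element, are given here because the levels of these genes carry the results. Sequences are from RefSeq, build GRCm38.p6, 5′ to 3′ on the gene's own strand, and capitals mark either motif.
Tiparp, chr3:65528197-65528446 (plus strand): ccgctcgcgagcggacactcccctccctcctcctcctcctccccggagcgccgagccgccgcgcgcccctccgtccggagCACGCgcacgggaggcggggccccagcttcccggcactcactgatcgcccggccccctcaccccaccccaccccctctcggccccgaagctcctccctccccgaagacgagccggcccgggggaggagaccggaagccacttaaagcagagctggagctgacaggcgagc
Ahrr, chr13:74292332-74292581 (minus strand): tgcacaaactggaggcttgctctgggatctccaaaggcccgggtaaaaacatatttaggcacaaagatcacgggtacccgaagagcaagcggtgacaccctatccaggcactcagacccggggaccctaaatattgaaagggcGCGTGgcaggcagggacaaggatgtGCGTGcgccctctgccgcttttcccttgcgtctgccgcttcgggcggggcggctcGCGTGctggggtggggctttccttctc
Cyp1a1, chr9:57697363-57697612 (plus strand): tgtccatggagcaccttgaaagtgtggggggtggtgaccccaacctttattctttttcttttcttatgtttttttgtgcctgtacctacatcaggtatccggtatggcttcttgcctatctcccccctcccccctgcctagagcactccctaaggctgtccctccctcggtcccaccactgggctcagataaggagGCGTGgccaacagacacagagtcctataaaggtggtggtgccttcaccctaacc
Cyp1b1, chr17:79715062-79715311 (minus strand): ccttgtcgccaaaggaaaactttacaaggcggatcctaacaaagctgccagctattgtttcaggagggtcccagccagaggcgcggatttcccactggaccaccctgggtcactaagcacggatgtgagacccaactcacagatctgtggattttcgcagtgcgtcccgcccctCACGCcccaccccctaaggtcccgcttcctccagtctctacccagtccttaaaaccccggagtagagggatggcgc
Nfe2l2, chr2:75704664-75704913 (minus strand): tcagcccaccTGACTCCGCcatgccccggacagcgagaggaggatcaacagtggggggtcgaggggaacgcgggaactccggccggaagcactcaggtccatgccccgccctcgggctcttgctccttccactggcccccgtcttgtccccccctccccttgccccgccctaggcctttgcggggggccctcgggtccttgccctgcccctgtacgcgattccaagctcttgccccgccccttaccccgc
Ahrr held 3 copies of GCGTG, which 2.77% of all windows did, starting 107, 82 and 27 bases before the start. Cyp1a1 held 1 copy 54 bases before the start. Cyp1b1 and Tiparp held 1 copy each on the opposite strand (CACGC in the sequences), 76 and 170 bases before the start. The element in Nfe2l2 began 240 bases before the start. No match lay in the windows of Nqo1 and Serpinb2. A match of letters does not show binding.

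The libraries differed strongly between genotypes, which sets how each level can be read. The 6 libraries of APC-KO tumor 2 held 13464061 to 17196820 counts each and those of APC-KO tumor 1 held 8895722 to 19328572, against 28018638 to 46837543 for APC-WT tumor 2 and 74972634 to 93568353 for APC-WT tumor 1. Olfactory (Olfr) and vomeronasal (Vmn) receptor genes, 1974 in all and silent in macrophages by textbook knowledge, held 0.823% and 0.808% of the counts in APC-KO tumors 2 and 1, against 0.232% and 0.0345% in APC-WT tumors 2 and 1. Spread by exonic length over all genes, that background came to 17.9% and 17.6% of the counts in APC-KO and 5.05% and 0.751% in APC-WT. Satellite-like loci took a further 38.5% and 37.9%, against 7.08% and 1.32%. Levels below are therefore scaled CPM, in which the counts of 3941 expressed genes stand in for the library total of ordinary CPM. A gene counts as expressed if its CPM averaged over the 4 tumors reaches 10 and also reaches 10 times background. A gene can therefore pass through its APC-WT level, as Tiparp did with 8.62 and 8.75 times background in APC-KO tumors 2 and 1. Counts over lists of expressed genes below carry this limit. The background expected for each gene follows from its exonic length. All 12 macrophage markers were expressed, among them Adgre1, the gene of F4/80. From the 5th to the 95th percentile, single Olfr and Vmn genes read 0.32 to 2.32 and 0.31 to 2.32 times their expected background in APC-KO tumors 2 and 1, against 0.40 to 1.85 and 0.23 to 2.59 times in APC-WT tumors 2 and 1.

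The median coefficient of variation between the libraries of a tumor, over 9821 genes with at least 5 CPM and 3 times background, was 11.1% and 13.9% in APC-KO tumors 2 and 1, against 7.91% and 5.87% in APC-WT tumors 2 and 1. The chi-square per degree of freedom between library pairs, which grows with depth, ran from 4.76 to 8.17 and from 4.90 to 9.79 in APC-KO tumors 2 and 1, against 6.50 to 38.0 and 6.94 to 126 in APC-WT tumors 2 and 1. In APC-WT tumor 2 the value was at most 10.5 within libraries 1, 2 and 3 and at most 7.36 within libraries 4, 5 and 6, and at least 16.4 between these sets. In APC-WT tumor 1 it was 6.94 between libraries 2 and 4 and at most 12.8 among libraries 3, 5 and 6, while library 1 differed from every other by 46.1 or more. Some members also differed without overlap between libraries 1 to 3 and 4 to 6 of APC-WT tumor 2, and between libraries 1, 2 and 4 and libraries 3, 5 and 6 of APC-WT tumor 1. These sets were picked from the same data. The share of all genes that separate by them was not counted, so the values below are a description only. Ahr did so in both tumors, with the first set higher. Nfe2l2 did so in both with the first set lower, at 696 to 739 against 754 to 815 scaled CPM in APC-WT tumor 2 and 802 to 851 against 854 to 886 in APC-WT tumor 1. The first set was also lower for Tiparp (338 to 353 against 363 to 368) and Ahrr (7.42 to 8.33 against 8.92 to 10.9) in APC-WT tumor 2 and for Arnt (101 to 108 against 109 to 116) in APC-WT tumor 1.

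Against background, the 10 genes fell into 3 sets. Tiparp, Nfe2l2 and Serpinb2 stood clear of it in all 4 tumors. Ahr, Arnt and Nqo1 were well above it in APC-WT and at 1.68 to 2.50 times background in APC-KO. Ahrr, Cyp1a1, Cyp1b1 and Aldh3a1 were near background, apart from Ahrr in APC-WT tumor 1. Only Tiparp, Nfe2l2 and Serpinb2 met both limits for expressed genes, with 49.4, 114 and 10.8 times background on the mean CPM of the 4 tumors. Just outside the limit of 10 times lay Arnt with 7.89 times and Ahr with 6.48 times, and Serpinb2 was the member just inside it.

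**Figure D1:**
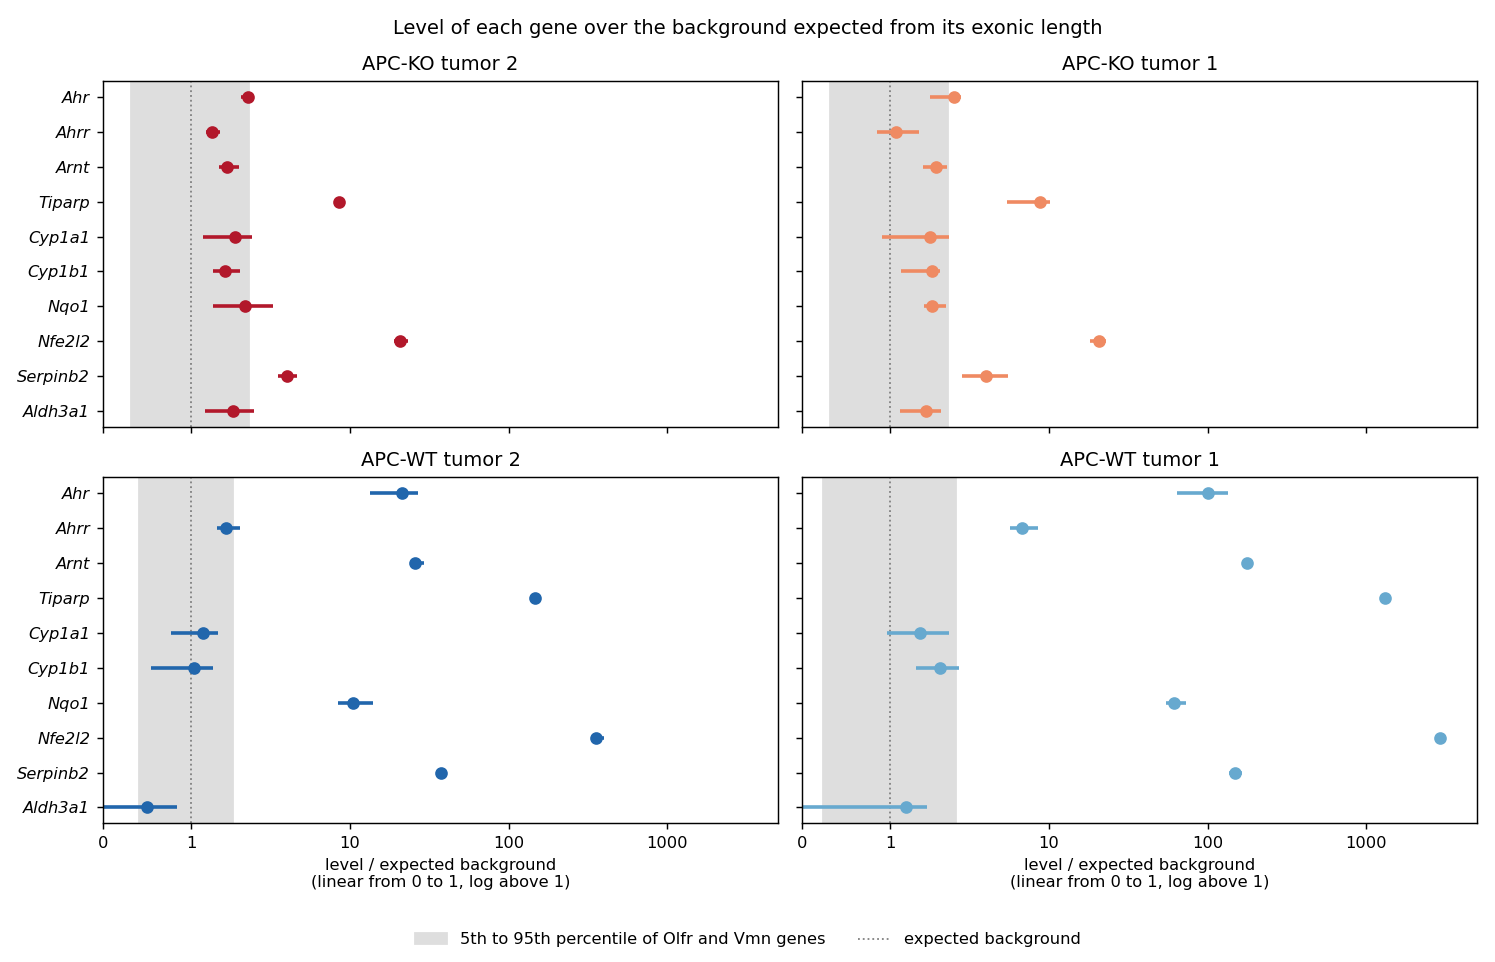
Level of each gene divided by the background expected from its exonic length (horizontal axis, linear up to 1 and logarithmic above), in each of the 4 tumors. Points are tumor values, lines run from the lowest to the highest of 6 libraries, and the grey band runs from the 5th to the 95th percentile of the Olfr and Vmn genes. Tiparp, Nfe2l2 and Serpinb2 lie to the right of the band in all 4 panels, and Cyp1a1, Cyp1b1 and Aldh3a1 lie within it.

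Ahr (ENSMUSG00000019256, chromosome 12, 35497974 to 35535038, minus strand, GRCm38, as are all gene positions here) encodes the receptor. Its libraries 1 to 6 read 50.7, 56.5, 58.8, 60.5, 57.0 and 50.9 scaled CPM in APC-KO tumor 2 and 59.1, 59.2, 44.1, 62.1, 63.9 and 63.4 in APC-KO tumor 1. They read 95.9, 89.3, 74.8, 58.0, 46.3 and 55.9 in APC-WT tumor 2 and 60.8, 54.6, 39.6, 61.9, 35.96 and 31.6 in APC-WT tumor 1. The genotypes overlapped widely, and the highest and the lowest of the 24 values were both from APC-WT. Expected background was 24.3 and 24.2 scaled CPM in tumors 2 and 1 of APC-KO, against 3.40 and 0.473 in APC-WT tumors 2 and 1. Above background there remained 31.4 ± 4.04 and 34.5 ± 8.02 scaled CPM in APC-KO, against 66.6 ± 19.8 and 46.9 ± 13.3 in APC-WT (mean ± SD of 6 libraries). In APC-KO Ahr stood at 2.29 and 2.50 times background, and 94.8% and 95.8% of the Olfr and Vmn genes had a lower value, so its level there is close to the limit of what these libraries resolve.

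The coefficient of variation of Ahr between libraries was 28.3% and 28.1% in APC-WT tumors 2 and 1, larger than in 93.9% and 92.9% of 9821 genes with at least 5 CPM and 3 times background. The corresponding values of Arnt were 6.17% and 4.61%. In APC-WT tumor 2 libraries 1 to 3 read 74.8 to 95.9 and libraries 4 to 6 read 46.3 to 58.0 scaled CPM. In APC-WT tumor 1 libraries 1, 2 and 4 read 54.6 to 61.9 and libraries 3, 5 and 6 read 31.6 to 39.6. The same sets of libraries appeared in 400 expressed genes whose longest transcript starts GC-rich (at least 72.3% GC in its first 300 bases, where Ahr has 75%). In APC-WT tumor 2 their median log2 deviation from the tumor mean was 0.03 to 0.05 in libraries 1 to 3, against -0.07 to -0.02 in libraries 4 to 6. In APC-WT tumor 1 it was 0.02 to 0.03 in libraries 1, 2 and 4, against -0.04 to -0.03 in libraries 3, 5 and 6. In APC-KO tumor 1 it was 0.06 to 0.15 in libraries 4 to 6, where Ahr read 62.1 to 63.9 scaled CPM, and -0.19 to -0.05 in libraries 1 to 3, where Ahr read 44.1 to 59.2. In APC-KO tumor 2 Ahr read 50.9 in library 6, which had the highest deviation (0.06), and 58.8 in library 3, which had the lowest (-0.07). Cebpb, a gene with 76% GC at its start that was picked after its values were seen, varied from 82.0 to 2095 scaled CPM among the libraries of APC-WT tumor 2. The part of this in the Ahr values was not tested.

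**Figure D2:**
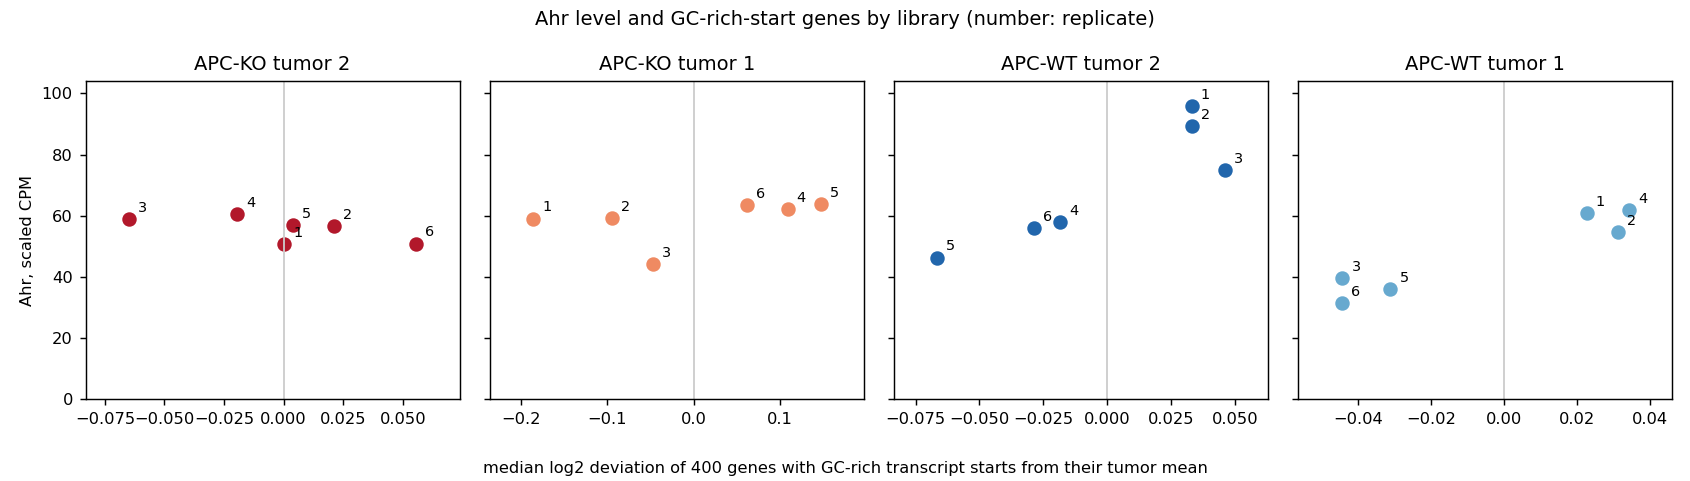
Ahr level in scaled CPM (vertical axis) against the median log2 deviation of 400 genes with GC-rich transcript starts from their tumor mean (horizontal axis, which differs in range between panels), 1 point per library with its replicate number. In APC-KO tumor 1 and in both APC-WT tumors the 3 libraries with a positive deviation had the higher Ahr values (62.1 to 63.9 against 44.1 to 59.2 scaled CPM in APC-KO tumor 1), and in APC-KO tumor 2 Ahr was at 50.9 at the highest and 58.8 at the lowest deviation.

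The change of Ahr between genotypes could not be called. On sums per tumor over all genes, scaled to the expressed genes, it was -0.03 ± 0.26 on the log2 scale (adjusted p = 0.909, edgeR). Without APC-WT tumor 2 it was 0.30 and without APC-WT tumor 1 it was -0.30, so its sign turned with the APC-WT tumor kept. Each of these 2 fits has 1 APC-WT tumor, so only the size of the change is given. Among genes with at least 5 CPM and 3 times background, tested with an offset for transcript length, it was -0.53 ± 0.22 (adjusted p = 0.0844, edgeR), where the median of the 3941 expressed genes was -0.88. Tested on libraries of that gene set without the offset, Ahr was 0.49 ± 0.16 log2 units higher in APC-WT tumor 2 than in APC-WT tumor 1 (adjusted p = 0.0170, edgeR). That test called 47.3% of its genes and takes the libraries as replicates, and the libraries of the 2 tumors overlapped. The lincRNA gene Gm48236, annotated across Ahr on the other strand, read at most 8.42 scaled CPM on average in any tumor.

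Arnt (ENSMUSG00000015522, chromosome 3, 95434388 to 95497240, plus strand), the partner through which the receptor binds DNA, was lower in APC-KO. It read 64.2, 50.02, 51.6, 49.6, 46.9 and 56.3 scaled CPM in libraries 1 to 6 of APC-KO tumor 2 and 60.2, 74.8, 70.4, 53.9, 47.9 and 66.3 in APC-KO tumor 1, against 114, 110, 108, 127, 115 and 109 in APC-WT tumor 2 and 105, 101, 116, 108, 109 and 109 in APC-WT tumor 1. The genotypes did not overlap. The share of all genes whose libraries separate by genotype was not counted, here and for the members below. Expected background was 31.6 and 31.4 scaled CPM in tumors 2 and 1 of APC-KO, so that 21.5 ± 6.10 and 30.9 ± 9.52 remained above it, against 109 ± 7.02 and 107.5 ± 4.96 in APC-WT tumors 2 and 1. In APC-KO tumors 2 and 1 Arnt stood at 1.68 and 1.94 times background, lower than the 95th percentile of the Olfr and Vmn genes, so a level above background was not resolved there against these genes. In the test over all genes, which called 58.5% of 53705 genes and 2.52% as lower, Arnt fell by 0.95 ± 0.19 log2 units (adjusted p = 0.00441, edgeR). Without APC-KO tumor 2 its adjusted p was 0.0512 in edgeR, with 0.0182 or less when any 1 of the other tumors was left out, and 0.0998 in DESeq2. Scaled to the Olfr and Vmn genes, its change was -5.80 ± 2.05 (adjusted p = 0.188, edgeR). Among the 9821 genes at the lower limit, where 62.0% were called and the median of the 3941 expressed genes moved to -0.88, Arnt was at -1.38 ± 0.14 (adjusted p = 0.00241, edgeR).

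The repressors of the receptor behaved unalike. Tiparp (ENSMUSG00000034640, chromosome 3, 65528410 to 65555518, plus strand), which inactivates the receptor by ADP-ribosylation, was lower in APC-KO and far above background everywhere. Its libraries 1 to 6 read 149, 147, 152, 148, 143 and 149 scaled CPM in APC-KO tumor 2 and 96.3, 150, 156, 171, 152 and 154 in APC-KO tumor 1, against 353, 351, 338, 368, 364 and 363 in APC-WT tumor 2 and 430, 423, 457, 444, 442 and 444 in APC-WT tumor 1. The genotypes were separate, and library 1 of APC-KO tumor 1 was the lowest of the 24. Expected background was 17.2 and 17.1 scaled CPM in APC-KO and 2.41 and 0.335 in APC-WT, so Tiparp stood at 8.62 and 8.75 times background in APC-KO tumors 2 and 1 and at 148 and 1313 times in APC-WT tumors 2 and 1. In the test of 2 against 2 tumors among expressed genes, with an offset for transcript length, 49.3% of the 3941 genes were called and 24.4% were called lower. Tiparp fell by 0.92 ± 0.15 log2 units (adjusted p = 0.00933, edgeR), and by 1.41 ± 0.16 without the length offset (adjusted p = 0.00214, edgeR), where 63.4% of the genes were called. Its change was -1.86 ± 0.22 among the 9821 genes at the limit of 5 CPM and 3 times background (adjusted p = 0.00265), where the median of the expressed genes was -0.88, and -0.52 ± 0.14 at 20 CPM and 20 times background (adjusted p = 0.0416, edgeR). Its adjusted p was 0.0672 without APC-KO tumor 1 and 0.0666 without APC-KO tumor 2, in tests of 1 APC-KO tumor, assumed to vary like the others, against 2 (edgeR). In tests on libraries, APC-KO tumor 2 was 0.78 and 1.05 log2 units below APC-WT tumors 2 and 1, where 80.5% and 81.3% of expressed genes were called, and APC-KO tumor 1 was 0.80 and 1.07 below them, where 80.0% and 82.0% were called. A pseudogene on the other strand, 4931440P22Rik, overlaps Tiparp and read 58.8 ± 5.65 and 60.7 ± 4.83 scaled CPM in tumors 2 and 1 of APC-KO, against 23.0 ± 1.20 and 26.6 ± 2.10 in APC-WT tumors 2 and 1. The sources used here do not say whether strand was used in counting, so reads of this pair cannot be told apart.

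Ahrr (ENSMUSG00000021575, chromosome 13, 74211118 to 74292331, minus strand), the repressor that competes for ARNT and whose promoter holds the 3 core motifs above, had more scaled CPM in APC-KO but little above background. It averaged 50.6 ± 3.85 and 40.2 ± 8.62 scaled CPM in tumors 2 and 1 of APC-KO, against 8.86 ± 1.25 and 4.86 ± 0.685 in APC-WT tumors 2 and 1, while expected background was 37.3 and 37.0, against 5.22 and 0.725. Above background there remained 13.4 ± 3.81 and 3.16 ± 8.86 scaled CPM in APC-KO and 3.64 ± 1.20 and 4.14 ± 0.695 in APC-WT, and the libraries of the genotypes overlapped. At 6.74 times background in APC-WT tumor 1, above 99.6% of Olfr and Vmn genes, its transcripts were resolved there, and in the other 3 tumors it stood at 1.09 to 1.67 times.

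Cyp1a1 (ENSMUSG00000032315, chromosome 9, 57687928 to 57703824, plus strand) and Cyp1b1 (ENSMUSG00000024087, chromosome 17, 79701537 to 79715061, minus strand), the classical induced enzymes, and Aldh3a1 (ENSMUSG00000019102, chromosome 11, 61207537 to 61218421, plus strand), an aldehyde dehydrogenase of the same response, were within the range of silent genes in all 4 tumors. Cyp1a1 read 25.1, 18.2, 22.5, 26.6, 19.9 and 12.9 scaled CPM in APC-KO tumor 2 and 19.0, 26.5, 25.3, 9.80, 21.4 and 16.4 in APC-KO tumor 1, against 2.33, 1.45, 2.13, 2.04, 1.84 and 1.22 in APC-WT tumor 2 and 0.197, 0.453, 0.287, 0.485, 0.305 and 0.273 in APC-WT tumor 1. Every APC-KO library was above every APC-WT library, and the expected background differed in the same way, with 10.997 and 10.9 in APC-KO against 1.54 and 0.214. Relative to it Cyp1a1 stood at 1.89 and 1.79 times in APC-KO tumors 2 and 1 and at 1.19 and 1.53 times in APC-WT tumors 2 and 1. These levels rest on 658 and 514 counts per tumor in APC-KO and on 281 (95% exact Poisson interval 249 to 316) and 120 (99.5 to 143) in APC-WT, intervals that cover counting error only.

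Cyp1b1 averaged 38.0 ± 5.73 and 40.7 ± 7.11 scaled CPM in tumors 2 and 1 of APC-KO, against 3.41 ± 1.08 and 0.922 ± 0.189 in APC-WT tumors 2 and 1. That was 1.64 and 1.82 times background in APC-KO, against 1.05 and 2.05 times in APC-WT, and the libraries of the genotypes overlapped on that scale. Aldh3a1 averaged 14.1 ± 3.28 and 13.1 ± 2.99 scaled CPM, or 1.83 and 1.67 times background, in APC-KO tumors 2 and 1, against 0.516 ± 0.348 and 0.186 ± 0.0947, or 0.499 and 1.26 times, in APC-WT tumors 2 and 1. It had 0 counts in library 4 of APC-WT tumor 2 and in library 4 of APC-WT tumor 1. If counts varied as Poisson, this would allow up to 0.153 and 0.0520 scaled CPM (3 counts). Expected background in these 2 libraries was 1.05 and 0.145, above those bounds, so the bounds are not firm.

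How these 4 genes compare between genotypes depends on the scale. Scaled to expressed genes, Ahrr, Cyp1a1, Cyp1b1 and Aldh3a1 were called higher in APC-KO, by 2.76 ± 0.46, 4.24 ± 0.97, 4.23 ± 0.69 and 5.23 ± 1.06 on the log2 scale (adjusted p = 0.00222, 0.00809, 0.00207 and 0.00490, edgeR), in a test that called 56.0% of all genes higher and had a median change of 3.57 over all genes. Scaled to the Olfr and Vmn genes instead, where 25 of 53705 genes (0.0466%) were called, the changes were -1.77 ± 1.05, 0.44 ± 0.47, 0.17 ± 0.65 and 1.03 ± 0.48 (adjusted p = 0.354, 0.723, 0.952 and 0.217, edgeR). No change of these genes beyond that of the silent genes was called. On that scale Tiparp (-6.39 ± 2.44) and Nfe2l2 (-6.31 ± 2.58) were not called either (adjusted p = 0.188 for both, edgeR). A missing call there thus cannot show that a gene follows the silent genes. On the first scale Ahrr lost its call without APC-KO tumor 2 (adjusted p = 0.0762, edgeR), and Cyp1a1 (0.108 and 0.139) and Aldh3a1 (0.139 and 0.186) lost theirs without APC-KO tumor 1 or APC-KO tumor 2. Among 4172 coding genes with at least 1000 exonic bases and under 2 times background in APC-WT tumor 1, the middle value in APC-KO tumors 2 and 1 was 1.09 and 1.10 times background. Cyp1a1 was above 94.9% and 92.4% of them, Aldh3a1 above 93.4% and 88.0%, Cyp1b1 above 86.8% and 93.2% and Ahrr above 71.4% and 49.5%. In the same tumors Ahr was above 99.3% and 99.8% of them, Nqo1 above 98.8% and 93.4% and Arnt above 88.7% and 96.0%.

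**Figure D3:**
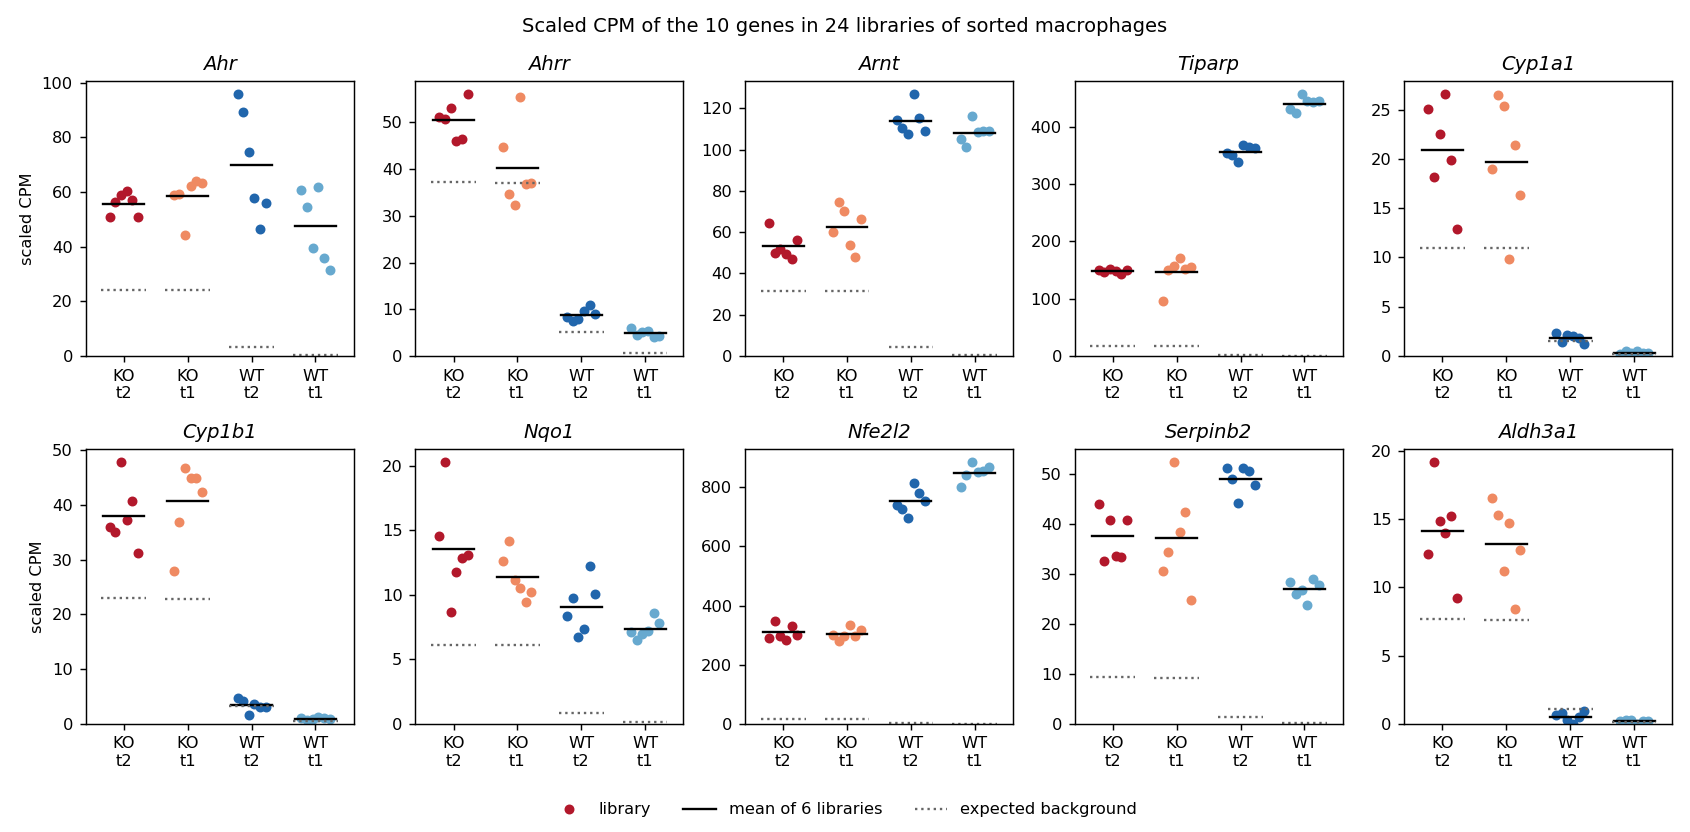
Scaled CPM (vertical axes, from 0) of the 10 genes in APC-KO tumors 2 and 1 and APC-WT tumors 2 and 1 (t2, t1). Points are the 6 libraries of a tumor, solid lines their mean and dotted lines the background expected from Olfr and Vmn genes. Arnt, Tiparp and Nfe2l2 are lower in APC-KO with no overlap. The share of all genes with no overlap was not counted. Cyp1a1, Cyp1b1, Ahrr and Aldh3a1 are higher in APC-KO together with their dotted lines.

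Nqo1 (ENSMUSG00000003849, chromosome 8, 107388225 to 107403206, minus strand), a quinone reductase under both the receptor and NRF2, was low but above background in APC-WT. It averaged 13.5 ± 3.87 and 11.4 ± 1.75 scaled CPM in tumors 2 and 1 of APC-KO, against 9.08 ± 2.01 and 7.36 ± 0.731 in APC-WT tumors 2 and 1. Expected background was 6.13 and 6.09, against 0.858 and 0.119, which leaves 7.41 ± 3.88 and 5.27 ± 1.54 in APC-KO and 8.22 ± 2.00 and 7.24 ± 0.730 in APC-WT. These ranges overlapped. The test over all genes gave 0.60 ± 0.68 (adjusted p = 0.409, edgeR), with 0.47 without APC-WT tumor 1 and 0.76 without APC-WT tumor 2. By contrast, the test at the lower limit gave -0.56 ± 0.25 (adjusted p = 0.108, edgeR) and, with expected background subtracted first, -1.24 ± 0.31 (adjusted p = 0.0180, edgeR), where 60.9% were called and the expressed genes had a median of -0.72. Its sign differed between the test over all genes and the tests at the lower limit, which differ in the genes tested, the scaling and the length offset.

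Nfe2l2 (ENSMUSG00000015839, chromosome 2, 75675513 to 75704641, minus strand) was the most abundant member per kilobase in every tumor. Its libraries 1 to 6 read 290, 348, 298, 283, 332 and 302 scaled CPM in APC-KO tumor 2 and 300, 281, 296, 335, 297 and 316 in APC-KO tumor 1, against 739, 726, 696, 815, 782 and 754 in APC-WT tumor 2 and 802, 840, 886, 851, 854 and 868 in APC-WT tumor 1. The highest APC-KO library, at 348, lay far under the lowest APC-WT library, at 696. It was at 20.6 and 20.7 times background in APC-KO and at 357 and 2911 times in APC-WT. With the length offset Nfe2l2 fell by 1.21 ± 0.15 log2 units (adjusted p = 0.00501, edgeR), and its adjusted p stayed between 0.00502 and 0.0439 when each tumor was left out in turn. At the limit of 5 CPM and 3 times background, where the expressed genes had a median of -0.88, it was at -2.36 ± 0.25 (adjusted p = 0.00243, edgeR). Above background it held 294 ± 25.4 and 289 ± 19.3 scaled CPM in tumors 2 and 1 of APC-KO, against 750 ± 42.3 and 850 ± 28.4 in APC-WT tumors 2 and 1.

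Serpinb2 (ENSMUSG00000062345, chromosome 1, 107511423 to 107535478, plus strand) encodes plasminogen activator inhibitor 2, a macrophage serpin that dioxin is known to induce. It read 43.9, 32.6, 40.8, 33.5, 33.4 and 40.6 scaled CPM in APC-KO tumor 2 and 30.5, 34.4, 52.3, 38.3, 42.3 and 24.7 in APC-KO tumor 1, against 51.1, 48.9, 44.1, 51.1, 50.6 and 47.8 in APC-WT tumor 2 and 28.3, 25.9, 26.7, 23.7, 29.0 and 27.7 in APC-WT tumor 1. The APC-KO means, 37.5 and 37.1, lay between those of APC-WT tumors 2 and 1, 48.9 and 26.9, and the APC-KO libraries together overlapped both. The genotype test gave -0.14 ± 0.29 (adjusted p = 0.701, edgeR), with 0.33 ± 0.17 without APC-WT tumor 2 (adjusted p = 0.172) and -0.50 ± 0.15 without APC-WT tumor 1 (adjusted p = 0.0504). At the lower limit, where the expressed genes had a median of -0.88, it was called with -1.06 ± 0.21 (adjusted p = 0.00920, edgeR). On libraries, both APC-KO tumors were 0.34 log2 units above APC-WT tumor 1 (SE 0.11 and 0.12, adjusted p = 0.00795 and 0.00966, edgeR) and 0.49 and 0.50 below APC-WT tumor 2 (adjusted p = 0.000402 and 0.000425). Serpinb10, which overlaps Serpinb2, read 9.44 and 12.7 scaled CPM in tumors 2 and 1 of APC-KO and 2.16 and 0.394 in APC-WT tumors 2 and 1.

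**Figure D4:**
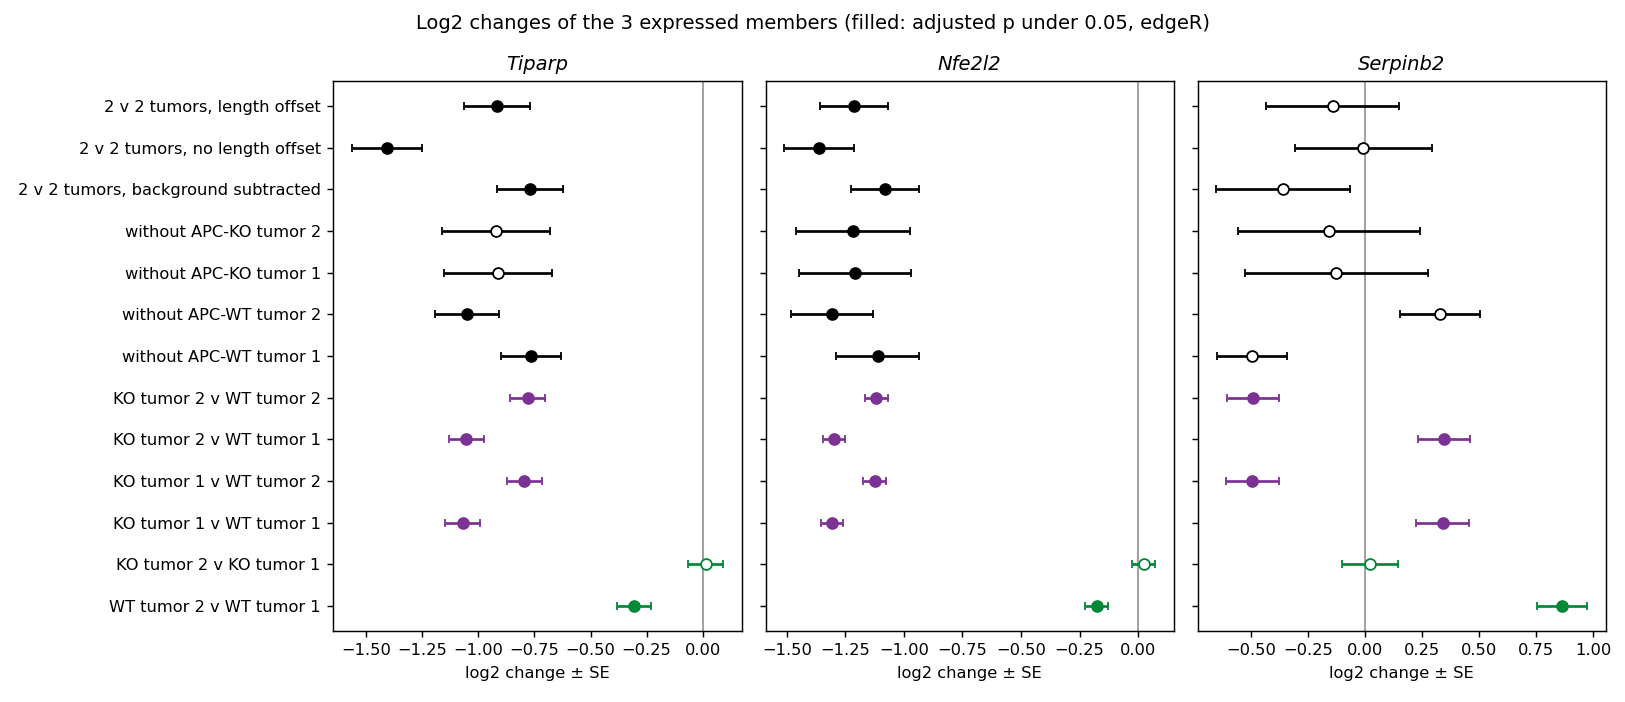
Log2 changes with SE (horizontal axes) of Tiparp, Nfe2l2 and Serpinb2 in the test of APC-KO against APC-WT tumors (black, with 2 alternatives and each tumor left out), in the 4 pairs of tumors that cross genotypes (purple) and between tumors of 1 genotype (green). Tiparp and Nfe2l2 are below 0 in every comparison between genotypes, and Serpinb2 lies on either side of 0 depending on the APC-WT tumor.

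Between tumors of 1 genotype, the 3 expressed members differed in APC-WT and were not called in APC-KO. Between APC-KO tumors 2 and 1, where 33.3% of expressed genes were called, their changes were 0.01 ± 0.08 for Tiparp, 0.02 ± 0.05 for Nfe2l2 and 0.02 ± 0.12 for Serpinb2 (adjusted p = 0.928, 0.775 and 0.924, edgeR). Between APC-WT tumors 2 and 1, where 46.9% were called, Serpinb2 was 0.86 ± 0.11 higher in tumor 2 (adjusted p = 5.69e-07, edgeR), Tiparp fell by 0.31 ± 0.08 (adjusted p = 0.00168) and Nfe2l2 fell by 0.18 ± 0.05 (adjusted p = 0.00456). All 10 epithelial markers were above 3 times background in APC-WT tumor 1 and 9 in APC-WT tumor 2, and their summed level was 688 scaled CPM in APC-WT tumor 2 against 208 in APC-WT tumor 1 (404 and 329 in APC-KO tumors 2 and 1). Epcam, the defining surface marker of that list, read 55.2 ± 2.72 in APC-WT tumor 2 against 14.3 ± 1.45 in APC-WT tumor 1. The part of epithelial RNA in the Serpinb2 difference was not tested. Whether Ahr, Arnt and Nqo1 differed between the tumors was tested at the lower limit, where 15.4% and 47.3% of genes were called within APC-KO and within APC-WT. Arnt was at -0.24 ± 0.09 between APC-KO tumors 2 and 1 (adjusted p = 0.0649) and at -0.01 ± 0.08 between APC-WT tumors 2 and 1 (adjusted p = 0.963, edgeR). Ahr was at -0.10 ± 0.17 between APC-KO tumors 2 and 1 (adjusted p = 0.798) and 0.49 ± 0.16 higher in tumor 2 of APC-WT than in tumor 1 (adjusted p = 0.0170, edgeR), where the expressed genes had a median of -0.10. Nqo1 was at 0.24 ± 0.17 in APC-KO (adjusted p = 0.421) and at 0.22 ± 0.15 in APC-WT (adjusted p = 0.237, edgeR).

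Ordered by level above background per kilobase of exon, the 10 members ran Nfe2l2, Tiparp, Serpinb2, Ahr, Nqo1, Cyp1a1, Aldh3a1, Arnt, Cyp1b1 and Ahrr in APC-KO tumor 2, with 77.5, 30.0, 12.0, 5.10, 4.77, 3.55, 3.34, 2.69, 2.56 and 1.42 scaled CPM per kb. In APC-KO tumor 1 they ran Nfe2l2, Tiparp, Serpinb2, Ahr, Arnt, Nqo1, Cyp1a1, Cyp1b1, Aldh3a1 and Ahrr with 76.2, 29.7, 11.9, 5.59, 3.86, 3.39, 3.16, 3.04, 2.85 and 0.335. In APC-WT tumor 2 the order of the first 6 was Nfe2l2, Tiparp, Serpinb2, Arnt, Ahr and Nqo1 with 198, 81.2, 20.3, 13.7, 10.8 and 5.29, and in APC-WT tumor 1 Nfe2l2, Tiparp, Arnt, Serpinb2, Ahr and Nqo1 with 224, 100.9, 13.4, 11.4, 7.61 and 4.66. The other 4 members lay between -0.287 and 0.386 in APC-WT tumor 2 and between 0.0191 and 0.438 in APC-WT tumor 1, with Ahrr the highest of them. Nfe2l2 led in all 4 tumors and its libraries did not overlap those of Tiparp, which came next and overlapped Serpinb2 in APC-KO tumor 1 alone. From Ahr downwards, neighbours in this order overlapped between libraries in APC-KO, and so did Ahr and Nqo1 in APC-WT.

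The genes whose profile over the 4 tumor means was most like that of Tiparp were Caprin1 and Cd83, with root mean square differences of 0.04 and 0.04 log2 units after centring. Cd83 read 1337 and 1247 scaled CPM in tumors 2 and 1 of APC-KO and 3028 and 3931 in APC-WT tumors 2 and 1. For Nfe2l2 they were C5ar1, the C5a receptor of myeloid cells, and Plxnb2 (0.01 and 0.02). For Serpinb2 they were Klf4 and Grk6 (0.09 each). With 4 points per profile this is a description of likeness only.

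Other genes of the pathway came from lists of known members. Of 12 genes of the cytosolic receptor complex and its coactivators, 6 were expressed, 2 of them rose in APC-KO and 1 fell, beside 24.9% of expressed genes called higher and 24.4% lower. Their median change was 0.28, against -0.03 for all expressed genes. Hsp90aa1, an inducible HSP90 chaperone that holds the receptor, read 355 ± 10.1 and 477 ± 15.9 scaled CPM in tumors 2 and 1 of APC-KO, against 178 ± 13.1 and 167 ± 8.44 in APC-WT tumors 2 and 1, and rose by 1.67 ± 0.19 (adjusted p = 0.00429, edgeR). Hsp90ab1, the constitutive form, rose by 0.65 ± 0.14 (adjusted p = 0.0218), and Ptges3, the co-chaperone p23, was at 0.35 ± 0.11 (adjusted p = 0.0573). Ncoa3, a coactivator, fell by 0.54 ± 0.12 (adjusted p = 0.0211). In APC-KO tumors 2 and 1 Ncoa3 read 110 and 101 scaled CPM over 31.2 and 30.9 of background. It thus passed the limit of 10 times through APC-WT. Without the length offset 5 of the 6 were called higher, beside 32.7% of all expressed genes.

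Of 10 genes of the bHLH-PAS family that share partners with the receptor, 1 was expressed. This was Hif1a, the hypoxia factor that competes for ARNT, which read 127 ± 4.69 and 202 ± 20.5 scaled CPM in tumors 2 and 1 of APC-KO, against 1025 ± 48.5 and 784 ± 29.0 in APC-WT tumors 2 and 1, and fell by 1.92 ± 0.30 (adjusted p = 0.00882, edgeR). Of 26 further reported targets of the receptor, 8 were expressed, with 4 lower, 0 higher and a median of -1.02, beside 24.4% of expressed genes called lower, 24.9% called higher and a median of -0.03. Among the 4, Xdh read 131 and 167 scaled CPM over 36.3 and 35.9 of background in APC-KO tumors 2 and 1. Entpd1 read 153 and 162 over 22.1 and 21.9 there, so both passed the limit of 10 times through APC-WT. These counts do not describe targets outside the limit. Vegfa, the vessel growth factor, read 591 ± 47.7 and 679 ± 186 scaled CPM in tumors 2 and 1 of APC-KO, against 2642 ± 52.4 and 2636 ± 52.0 in APC-WT tumors 2 and 1, and fell by 1.61 ± 0.17 (adjusted p = 0.00395). Ptgs2, the inducible prostaglandin synthase, fell by 1.68 ± 0.32 (adjusted p = 0.0139), Xdh, xanthine dehydrogenase, by 1.50 ± 0.18 (adjusted p = 0.00497) and Entpd1, the ectonucleotidase CD39, by 0.78 ± 0.12 (adjusted p = 0.00779, edgeR). Vegfa and Ptgs2 are also known to answer to hypoxia and inflammation. None of the 10 enzymes that make kynurenine or indole ligands was expressed by the limits used. Tdo2, the enzyme of the series title, stood at 15.9 ± 2.22 and 15.5 ± 2.83 scaled CPM in APC-KO over 15.3 and 15.2 of background, and at 2.98 ± 0.514 and 0.346 ± 0.157 in APC-WT over 2.12 and 0.297. Ido1, which opens the tryptophan ring in immune cells, was above 3 times background in APC-WT tumors 2 and 1, with 9.06 ± 0.370 and 4.61 ± 0.588 scaled CPM, and not in APC-KO, with 9.43 ± 1.24 and 9.90 ± 3.82 over 7.22 and 7.15 of background.

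Of 28 targets and regulators of NRF2, 21 were expressed, of which 5 rose and 4 fell, beside 24.9% of expressed genes called higher and 24.4% lower. Their median change was -0.18, against -0.03 for all expressed genes. Mafg, a small MAF partner of NRF2, read 190 ± 26.9 and 210 ± 29.8 scaled CPM in tumors 2 and 1 of APC-KO, against 86.4 ± 27.9 and 70.3 ± 22.3 in APC-WT tumors 2 and 1, and rose by 1.86 ± 0.19 (adjusted p = 0.00361, edgeR), whereas Mafk, another partner, fell by 0.65 ± 0.11 (adjusted p = 0.0114). Cat, catalase, fell by 1.40 ± 0.12 (adjusted p = 0.00315) and G6pdx, which makes NADPH, by 1.29 ± 0.11 (adjusted p = 0.00317). In APC-KO tumors 2 and 1 Cat read 37.3 and 34.6 scaled CPM over 10.3 and 10.2 of background. G6pdx read 45.2 and 53.9 over 12.2 and 12.1 there, and Mafk 79.4 and 91.0 over 15.4 and 15.3. Cat, G6pdx and Mafk thus passed the limit of 10 times through APC-WT. Hmox1, heme oxygenase 1, a classical NRF2 target, was at -0.24 ± 0.31 (adjusted p = 0.538, edgeR). Keap1, the NRF2 inhibitor, was at 0.46 ± 0.12 with the length offset (adjusted p = 0.0309) and at 0.03 without it (adjusted p = 0.813), and Pgd and Maff likewise lost their calls without it. Of 11 genes of plasminogen activation and related serpins 1 was expressed, Plaur, the urokinase receptor, at -0.47 ± 0.19 (adjusted p = 0.103, edgeR).

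**Figure D5:**
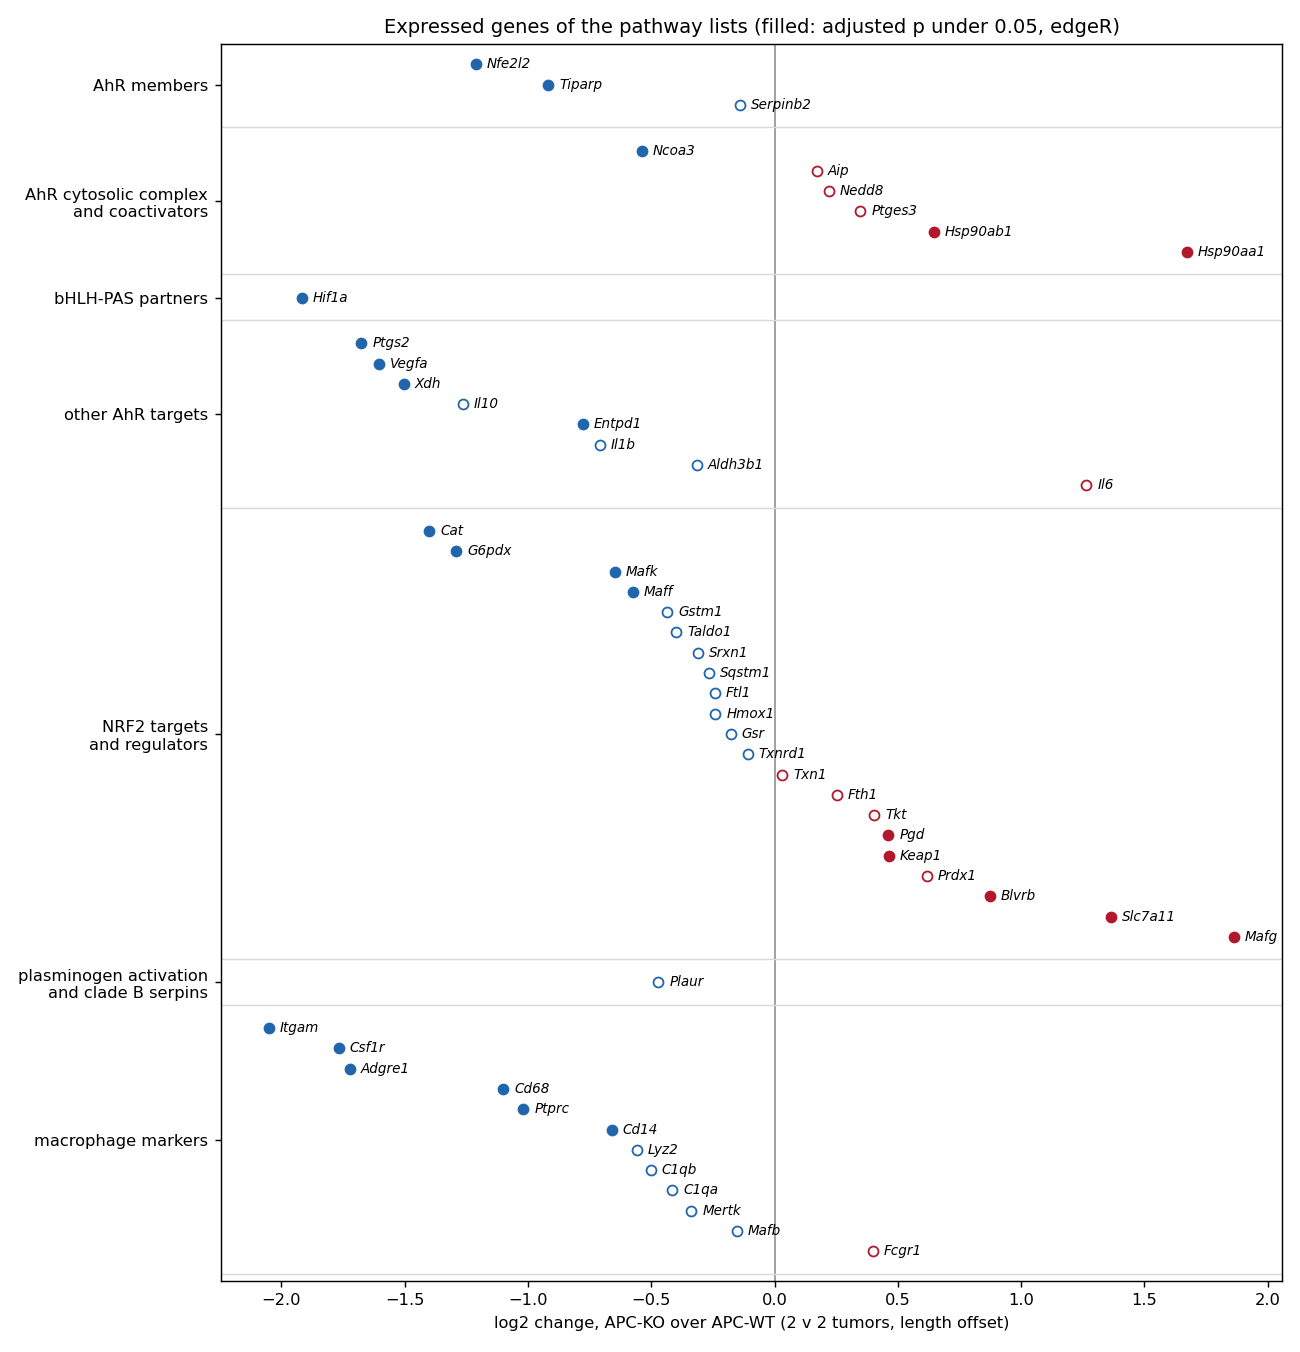
Log2 change of APC-KO over APC-WT tumors with the length offset (horizontal axis) for each expressed gene of 7 lists, sorted within each list, with filled points for an adjusted p under 0.05. The 8 expressed receptor targets include 4 filled points left of 0 and none right of it. The 21 expressed NRF2 genes have filled points on both sides, from -1.40 to 1.86. Genes outside the limit for expressed genes are not drawn.

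Some markers of the sorted cells were lower in APC-KO. Of 12 macrophage markers 6 fell and 0 rose in APC-KO, beside 24.4% and 24.9% of expressed genes, with a median of -0.61. The rest of the 12 were not called. Of the 6 called lower, Itgam (CD11b) fell by 2.05 ± 0.15 (adjusted p = 0.00278) and Csf1r by 1.77 ± 0.20 (adjusted p = 0.00450, edgeR). Adgre1 fell by 1.72 ± 0.15 (adjusted p = 0.00318, edgeR). Cd68 fell by 1.10 ± 0.13 (adjusted p = 0.00507, edgeR) with the length offset and was at -0.27 without it (adjusted p = 0.155). Cd14 fell by 0.66 ± 0.18 (adjusted p = 0.0397, edgeR) and was likewise at -0.24 without the offset (adjusted p = 0.284), where 5 of the 12 were called lower. The summed level of the 12 was 32946 and 32354 scaled CPM in tumors 2 and 1 of APC-KO, against 32911 and 38722 in APC-WT tumors 2 and 1. Fibroblast markers summed to 598 and 404 scaled CPM in APC-KO over 220 and 218 of background. In APC-WT they summed to 940 and 1653 over 30.4 and 4.25. Neutrophil markers summed to 290 and 539 over 68.3 and 67.6 in APC-KO, against 580 and 322 over 9.44 and 1.32. T and NK cell markers summed to 271 and 142 scaled CPM over 101 and 99.6 of background in APC-KO, against 55.8 and 29.2 over 13.9 and 1.94 in APC-WT, and dendritic cell markers to 285 and 288 over 134 and 133, against 69.0 and 26.3 over 18.6 and 2.60. Mast cell and basophil markers summed to 247 and 302 over 96.2 and 95.3 in APC-KO, against 317 and 79.1 over 13.3 and 1.86. In every tumor all 12 macrophage markers were above 3 times background, while of the fibroblast markers 3 and 0 of 8 were in APC-KO tumors 2 and 1, against 6 and 8 in APC-WT tumors 2 and 1. In bulk RNA, fewer cells of a type and less RNA per cell cannot be told apart, and the part of these markers in the changes of Tiparp, Nfe2l2 and Arnt was not tested.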

How the data were processed

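Whole-number counts of 24 libraries, deposited by the authors, cover 55487 gene IDs. The submitters' processing notes name bcl2fastq 2.20.0, StringTie, HISAT2 and the build mm9; roles and settings are not given in the sources used here. Symbols and exonic lengths were taken from GENCODE M21 (GRCm38) for 55227 IDs. Members and lists were chosen with earlier results of these data known.

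Summed over its 6 libraries, each tumor gave 1 column, and APC-KO columns were set against APC-WT columns in edgeR 4.0.16 (quasi-likelihood, TMM over expressed genes, Benjamini-Hochberg at 0.05). For the length offset, loess (span 0.5) was run on longest transcript length, without the 12 satellite-like loci (at least 0.3 of 15-mers shared with Gm10800). Expected background is the count per kb of Olfr and Vmn genes times exonic length. Tumors of 1 genotype (without the offset) and pairs of tumors across genotypes (with it) were tested on libraries, so their p-values measure spread between libraries. An exact permutation test of 2 against 2 tumors cannot go below p = 0.333. Alternatives used limma 3.58.1, DESeq2 1.42.0 and other limits. The scripts were tested on simulated counts. Genes named beside the 10 members were, per list, up to 4 expressed genes with the smallest p. For each expressed member the 2 genes with the most similar profile were also named. Cebpb, Cd14, Hmox1, Keap1, Pgd, Maff, Tdo2, Ido1, Ugt1a6a, Nedd9 and the genes overlapping members were added after their values were seen. Replicate numbers are separate libraries of 1 sample. Python 3.11.15 (matplotlib 3.10.9, scipy 1.17.1, numpy 2.4.6, pandas 2.3.3) and R 4.3.3 were used.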

Additional observations from a re-analysis of the deposited data

Results flagged for a closer look

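Of 40 sets of 6 libraries (10 genes in 4 tumors), 3 had a library whose gap to its nearest neighbour exceeded Dixon's 95% critical value of 0.625 of the range, and chance flags about 1 in 20, or 2 of 40. Tiparp read 96.3 scaled CPM in library 1 of APC-KO tumor 1, where the other 5 libraries ran from 150.2 to 171. Ahr read 44.1 scaled CPM in library 3 of APC-KO tumor 1, where the others ran from 59.1 to 63.9. Aldh3a1 was at 0 in APC-WT tumor 1, library 4, where the others ran from 0.179 to 0.244.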

How the results depend on the processing

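With 2 tumors a genotype and a background of 17.6% and more of the APC-KO counts, calls depended on the limit for expressed genes and on the scale. The main count was 1943 of 3941 expressed genes. It was 6093 at the limit of 5 CPM and 3 times background (5981 with expected background subtracted), 870 at 20 CPM and 20 times background, and 798 to 1934 when 1 tumor was left out. With TMM over all genes, all genes tested and no length offset together, it was 0 in edgeR, with 18647 genes at an unadjusted p under 0.05 and a median of -4.01 for the expressed genes. Without the length offset, leaving out 1 tumor gave 1679 to 2514. Over all genes scaled to the expressed genes the count was 31435, with 6290 to 51789 when 1 tumor was left out and 25 when scaled to the Olfr and Vmn genes. Between APC-WT tumors the count of 1850 became 4647 at the lower limit. Nfe2l2 kept its direction in all 17 alternatives and lost its call only with TMM over all genes and no length offset (-5.43). Tiparp kept its direction in 17 and lost its call in 3, with TMM over all genes (-5.51) and without either APC-KO tumor. At the lower limit they were at -2.36 and -1.86 (-2.09 and -1.49 with background subtracted), against -1.21 and -0.92, and at 20 CPM and 20 times background at -0.94 and -0.52. Scaled to the Olfr and Vmn genes, Ahrr turned to -1.77 and Nqo1 to -4.15. Without APC-WT tumor 2, Serpinb2 turned to 0.33 with the length offset and to 0.48 without it or over all genes, and Ahr to 0.30; without APC-WT tumor 1 Serpinb2 was at -0.50 with the offset and -0.37 without it or over all genes, and Ahr at -0.30. Between APC-KO tumors at the lower limit Tiparp turned to -0.011 and Serpinb2 to -0.0024. The causes were not tested. The number of members above 2 times background in every tumor was 4, also with Olfr or Vmn genes alone, and 5 with their median gene. Replicate numbers did not pair the libraries over the 4 tumors (correlations of same-numbered libraries from -0.469 to 0.719, 3 of 24 libraries best with their own number). Between the APC-WT tumors, libraries 1, 2, 5 and 6 correlated with their own number at 0.626, 0.642, 0.719 and 0.65. Libraries 3 and 4 did so at -0.368 and -0.169. With the replicate block 1280 genes were called between APC-KO tumors, against 1312, and 1795 between APC-WT tumors, against 1850, and no call of a member changed. Subtracting the expected background at the lower limit or without the length offset, leaving out tumors without that offset, the set of 4172 near-silent genes and the GC-rich starts were chosen after seeing the data.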
